A study of Mus musculus with 20 samples.

Results

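The transcriptome of whole liver from wild-type mice on a control diet was described from 4 RNA sequencing libraries, chosen by their labels out of 20 in the series, of which 14 are liver. The labels give each of the 4 as total liver of a male mouse with the genotype WT on control diet, with a diet period of 6 weeks, and none carries an added allele or agent. The liver was lysed whole, so the values mix hepatocytes with every other cell of the organ. The sources used here give neither strain nor age, and nothing in the labels says whether the libraries, numbered replicate 1 to 4 in the order of their records, came from separate animals. An SD over 4 libraries (n = 4 throughout) is therefore the spread between these libraries, part of which may be technical. No other group was compared and no test was run, so every statement is a level, a share or a spread. The table lists 24972 gene symbols in TPM, a relative abundance of transcripts: the reads of a gene per length of transcript, scaled so that every library has the same sum, 1000000. TPM levels can be compared between genes, but they keep no record of sequencing depth, so the reads behind a value are unknown.

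The liver parenchyma is made of hepatocytes, which secrete most proteins of blood plasma and carry out gluconeogenesis, lipid synthesis and oxidation, bile acid production, ammonia disposal and drug metabolism. Between them run the sinusoids, lined by a fenestrated endothelium, with Kupffer cells as resident macrophages, stellate cells as vitamin A stores and cholangiocytes lining the bile ducts. During infection or injury, interleukin-6 and interleukin-1 switch hepatocytes to the acute-phase programme, which raises serum amyloid A, fibrinogen, haptoglobin and other defence proteins.

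The hepatocyte genes that mark the label stood at the top of the table. Alb, which encodes albumin, the main protein of plasma and its principal carrier of fatty acids, read 86946, 109522, 107073 and 102757 TPM in replicates 1 to 4, in which order all such series of 4 values are given. It was the most abundant gene in every library, with a mean of 101574 ± 10146 TPM (SD, n = 4), and replicate 1 was the lowest. Apoa1, the structural protein of high-density lipoprotein, read 14015, 15418, 10289 and 11812 TPM and ranked 14th by mean. Cyp2e1, the ethanol-oxidising cytochrome P450 of pericentral hepatocytes, read 11435, 9567, 12232 and 12930.1 TPM and ranked 17th. The order of the libraries differed between the 3 genes. The Y-linked translation factor Eif2s3y read 8.07, 8.74, 8.29 and 11.2 TPM and the Y-linked helicase Ddx3y 2.7, 2.19, 3.38 and 4.85 TPM, while Xist, the transcript that coats the inactive X chromosome of female cells, stayed at 0.00925, 0.135, 0.00165 and 0.00294 TPM. Ager, which encodes the receptor RAGE that the genotype name of other liver groups in the series refers to, was near 0 at 0.199, 0.153, 0.0194 and 0.105 TPM.

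Alb lies on mouse chromosome 5 at chr5:90460897-90476602 of GRCm38 (mm10), plus strand, a protein-coding gene of the GENCODE annotation. The 250 bases before its RefSeq start, chr5:90460620-90460869 of GRCm38.p6 on the plus strand, are shown because this promoter precedes the single most abundant transcript; capitals mark GTTAAT and CCAAT on either strand, the core letters of the HNF1 and CCAAT-box elements.
Alb promoter: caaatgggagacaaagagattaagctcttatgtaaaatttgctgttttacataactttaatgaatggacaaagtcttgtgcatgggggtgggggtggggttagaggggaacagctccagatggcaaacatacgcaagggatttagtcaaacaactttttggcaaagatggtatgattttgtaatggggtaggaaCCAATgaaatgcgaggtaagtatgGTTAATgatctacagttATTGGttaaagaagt
The window held 1 GTTAAT and 2 CCAAT matches. GTTAAT, searched on both strands in the 250 bases before the start, occurred in 14 of the 73 promoters found in RefSeq for the 100 most abundant genes (19.2%) and in 32 of 126 promoters of expressed secreted-protein genes (25.4%). It occurred in 7.38% of 420 metabolic promoters, 4.55% of 66 ribosomal ones, 4.28% of the 7458 of all expressed genes and 5.79% of all 18243. The base composition of these promoters also differed. Median G+C content was 48% in the secreted set, 59.6% over expressed genes and 55.2% over all, and the part of composition in the motif counts was not tested. A TATAAA box on the sense strand between 45 and 16 bases before the start was found in 7.14% of the secreted and 4.05% of the metabolic promoters. Its share was 1.45% over expressed genes and 2.77% over all promoters. A match is a stretch of letters and does not show that a factor binds there.

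The transcriptome was concentrated in few genes. A mean of at least 1 TPM was reached by 9324 genes, at least 10 TPM by 4034, at least 100 TPM by 875 and at least 1000 TPM by 122, while 8473 genes were at 0 in all 4 libraries. Alb alone held 10.2 ± 1.01% of TPM (SD, n = 4). The 10 genes with the highest mean held 26.3 ± 0.978%, the top 30 held 45.8 ± 0.852%, the top 100 64.4 ± 1.56% and the top 1000 89.1 ± 0.592%. To reach 50% of TPM took 35 genes in replicate 1, 39 in replicates 2 and 3 and 37 in replicate 4. Of the 100 highest genes of each library, 87 were shared by all 4, and 115 were among those of any. All of the 10 highest genes encode secreted proteins of the lists used here. Of the 100 highest, 55 were on a secreted list, 36 on a metabolic list, 1 on the ribosomal list and 8 on none.

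**Figure D1:**
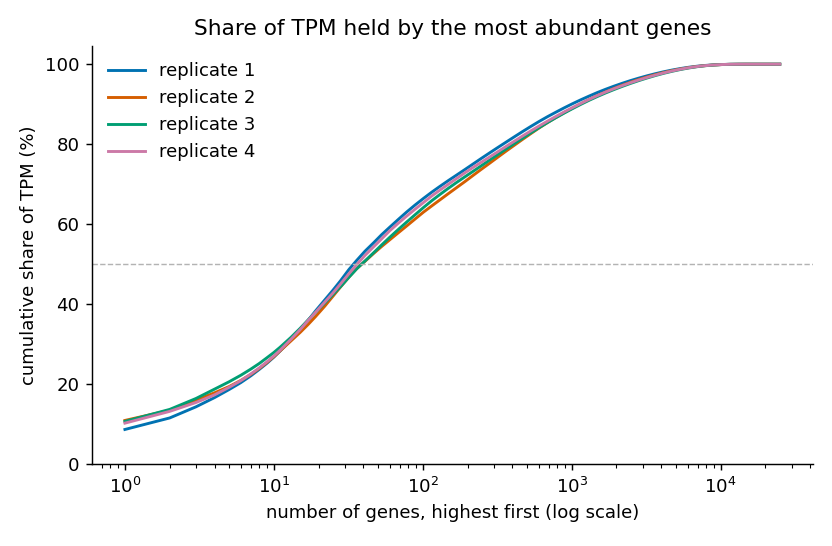
Cumulative share of TPM (%) against the number of genes counted from the most abundant down (log scale), 1 line per library, with a dashed line at 50%. The 4 curves run close together and cross the dashed line at 35 to 39 genes.

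Summed over lists in which each gene counts once, the 176 secreted-protein genes held 54.1%, 49.5%, 52.2% and 53.9% of TPM, a mean of 52.4 ± 2.09% (SD, n = 4). Replicate 2 was the lowest. The 597 metabolic genes held 19.2%, 21.7%, 20.7% and 20.1%, a mean of 20.4 ± 1.06%, with replicate 2 the highest and replicate 1 the lowest. Ribosomal proteins and elongation factors held 3.45 ± 0.391%, transcription factors and surface receptors of hepatocytes 0.356 ± 0.0131%, and the 145 marker genes of non-parenchymal and blood cells 0.185 ± 0.0149%. Genes on no list held 23.1 ± 0.813%. Members of the classes differed in typical level: the median mean level of expressed members (mean of at least 1 TPM) was 472 TPM for the secreted, 134 TPM for the metabolic and 7.79 TPM for the non-parenchymal class. At least 1000 TPM was reached by 60 secreted, 47 metabolic and no non-parenchymal genes. No symbol of the mitochondrial genome is in the table, so the shares are of nuclear transcripts.

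**Figure D2:**
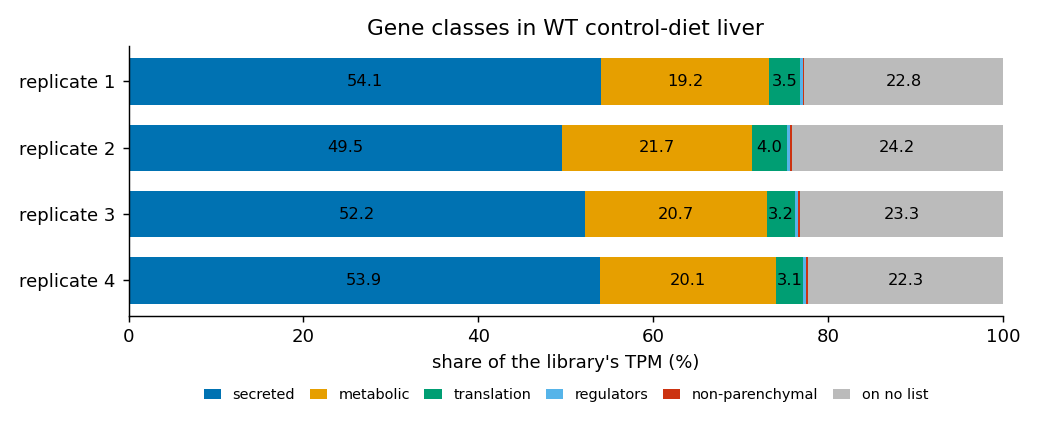
Share of each library's TPM (%) held by the gene classes, 1 stacked bar per library, with the value printed for classes above 2%. Secreted proteins fill 49.5% to 54.1% of each bar and metabolic genes 19.2% to 21.7%, while the non-parenchymal class is a sliver of 0.164% to 0.196%.

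Among the secreted proteins, plasma carriers held the largest share, 20.3 ± 0.488% of TPM over 26 genes. After Alb came Trf, which encodes the iron carrier transferrin, at 17388, 14411, 18242 and 14221 TPM, and Hpx, the haem scavenger hemopexin, at 16914, 9939.8, 12989.7 and 16724 TPM. Ahsg, the mineral-binding fetuin A, stood at 13774 ± 1215 TPM, Gc, the vitamin D carrier, at 7984 ± 540.5 TPM, and Ttr, the thyroxine and retinol-binding-protein carrier transthyretin, at 6939.6 ± 1383 TPM. Of the lists holding over 1% of TPM the carriers had the smallest ratio of highest to lowest sum, at 197079, 200696, 204532 and 208397 TPM, a ratio of 1.06. Protease inhibitors of the serpin family and their relatives held 10.1 ± 1.18%, led by Serpina3k, a kallikrein-binding antichymotrypsin relative, at 23105, 18672, 23404 and 29500.5 TPM, and Serpina1e, one of the mouse alpha-1-antitrypsins, at 27773, 15429.5, 27254 and 18758 TPM. Serpina1e was lower in replicates 2 and 4 than in 1 and 3, while its neighbours Serpina1c (14263 ± 899 TPM), Serpina1b (11580.3 ± 433 TPM) and Serpina1a (7312 ± 121 TPM) moved little. The 5 alpha-1-antitrypsin genes summed to 65262, 55118, 66672 and 59439 TPM. The paralogs share sequence: 82.2% of the 31-base words in Serpina1c transcripts also occur in another gene, and 54.2% of those in Serpina1e, so reads could be split between them and the sum is the safer value.

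Major urinary proteins are small lipocalins that male mouse liver secretes for pheromone signalling in urine. The 21 genes with a Mup symbol held 9.85 ± 1.76% of TPM, at 109461, 102778, 109366 and 72566 TPM, and replicate 4 was the lowest. Mup7 led with 28844, 25017, 30086 and 22138 TPM, followed by Mup20, which encodes the male pheromone darcin, with 15052, 25444, 16381 and 10845 TPM. Mup20 was highest in replicate 2, whereas Mup11 (15074, 8791, 12192 and 6543 TPM) was highest in replicate 1 and lowest in replicate 4. Mup3 stayed level at 7883 ± 553 TPM. The rows Gm21320 (13309.5 ± 1634 TPM) and Gm2083 (7212 ± 2028 TPM) carry names that RefSeq lists as synonyms of Mup22 and Mup13, and with them the 23 rows of the cluster at chr4:59956804-62150863 held 11.9 ± 1.97%. Mup13 also has a row of its own among the 21, so the Gm2083 row may not be the same gene. Members were hard to separate by sequence, since 90% of the 31-base words of Mup7, 100% of those of Mup19 and 86.2% of those of Mup17 occur in other genes. Mup17 was listed at 0, 0, 3148 and 0 TPM, and the gene it shares most words with is Mup11. Of the 19 expressed Mup genes, 13 were lowest in replicate 4, against 26.9% of all 9324 expressed genes and 45.4% of genes of matching transcript length. Matching here and below was by length quartile of expressed protein-coding genes, with the quartile shares averaged over list members. It was coarse: the shortest quartile ran from 374 to 2054 bases, and the median Mup transcript had 927.

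Apolipoproteins and lipoprotein enzymes held 4.87 ± 0.776%. Apoa1 led, followed by Apoa2, its partner in high-density lipoprotein, at 8213, 10791, 7214 and 7462 TPM, Apoc1, an inhibitor of lipoprotein uptake, at 7697, 9570.1, 6058 and 5599 TPM, and Apoe, the ligand for remnant clearance, at 5069, 7032, 4918 and 4415 TPM. All 4 were highest in replicate 2. Of the 20 expressed members, 11 were highest there, against 33.1% of all expressed genes and 58.9% of genes of matching transcript length, so the count is near its background. Coagulation and fibrinolysis genes held 4.08 ± 1.43%, mostly the fibrinogen chains. Outside fibrinogen the leading member was Kng1, the kininogen that releases bradykinin, at 3462 ± 194 TPM. Complement and collectin genes held 1.55 ± 0.163%, led by Vtn, which encodes vitronectin, an inhibitor of the membrane attack complex, at 4237, 3405, 3567 and 3334 TPM, and C3, the convergence point of the complement pathways, at 3445, 2236, 4015 and 4607 TPM. C3 was lowest in replicate 2. Of 27 expressed complement genes 18 were highest in replicate 3, where 31.6% of all expressed genes and 27.7% of those of matching transcript length were highest. When the libraries were rescaled by their median ratio the count was 9 of 27, against 22.1%. Hormones and binding proteins made by liver held 0.209 ± 0.0181%, with Agt, the precursor of angiotensin, at 426 ± 50.5 TPM and Igfbp2, an insulin-like growth factor carrier, at 361 ± 20.6 TPM. Hamp, which encodes hepcidin, the hormone that blocks iron export, reached 2539, 2495, 2289 and 3173 TPM.

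The metabolic class spread over more genes and pathways. Amino acid and one-carbon metabolism held the largest part at 3.51 ± 0.19%, led by Mat1a, the hepatic methionine adenosyltransferase, at 3674, 3213, 4149.8 and 4986 TPM, and Bhmt, which remethylates homocysteine with betaine, at 3436, 4986, 3473 and 3837 TPM. Hpd, of tyrosine breakdown, was level at 3537 ± 187 TPM, and so was Uox, the urate oxidase, at 2069 ± 121 TPM. Conjugation and carboxylesterase genes held 3 ± 0.313%, with Ces1c, a secreted plasma carboxylesterase, at 3468 ± 269.6 TPM. Gstp1, a glutathione transferase, read 3389.7, 3236, 3549.6 and 1702 TPM. Replicate 4 was the low one. Glucose, fructose and glycogen genes held 2.51 ± 0.172%, among them Pck1, the committed enzyme of gluconeogenesis, at 2076, 2473, 2711 and 1734 TPM. Fatty acid oxidation and ketogenesis held 2.32 ± 0.187%, with Fabp1, the liver fatty acid carrier, at 6706, 8201, 6071 and 7535 TPM.

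Nuclear genes of the respiratory chain and citrate cycle held 1.96 ± 0.246%, redox, iron and metallothionein genes 1.97 ± 0.108%, and alcohol and aldehyde oxidation 1.79 ± 0.112%, of which Cyp2e1 was the largest member. Adh1, the main alcohol dehydrogenase, stood at 3044 ± 428 TPM, Aldh1a1, a retinal dehydrogenase, at 1038 ± 137 TPM and Aldh2, the mitochondrial acetaldehyde dehydrogenase, at 569 ± 41.3 TPM. The cytochrome P450s other than Cyp2e1 held 1.43 ± 0.105%, and 51 of the 83 counted reached 1 TPM. Cyp2d9, a male-biased steroid hydroxylase, led them at 2175, 2736, 2765 and 1904 TPM. The urea cycle held 0.654 ± 0.0342%: Ass1 read 2209.8, 2769.7, 1806 and 1774 TPM, Arg1, the arginase that releases urea, 2199.8, 2115, 1826 and 2217 TPM, and Cps1, the ammonia-fixing first enzyme, 800.4, 632, 1178 and 1332 TPM. Cps1 was lowest in replicate 2 and highest in 4. The row Gm5424 (3208 ± 584 TPM) exceeded Ass1 itself, and 84.7% of its 31-base words occur in another gene, Ass1, so the sum of both, 5425, 5182, 5608 and 5177 TPM, is the safer value. Bile acid genes held 0.477 ± 0.0575% and cholesterol synthesis and uptake 0.156 ± 0.0478%. Genes of the pericentral end of the lobule, with Glul (glutamine synthetase, 1023 ± 98.8 TPM) as their classical member, summed to 14976, 12919.8, 16034 and 16390.3 TPM, and those of the periportal end to 10780.4, 11999, 11321 and 10302 TPM.

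Regulators were scarce beside their products. Hnf4a, the nuclear receptor that sets hepatocyte identity, read 274, 216, 343 and 336 TPM, Nr1i3, the xenobiotic receptor CAR, 202, 264, 224 and 164 TPM, and Rxra, the shared partner of nuclear receptors, 107, 98, 132 and 145 TPM. Of surface receptors Asgr1, the asialoglycoprotein receptor subunit, was the most abundant at 1017, 1204, 1011 and 1011 TPM. Egfr, the receptor for epidermal growth factor, read 216, 122, 237 and 242 TPM and was lowest in replicate 2.

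The markers of non-parenchymal and blood cells added up to 0.164%, 0.195%, 0.185% and 0.196% of TPM. In whole tissue, fewer cells of a type and less RNA per cell cannot be told apart. Kupffer cell and macrophage genes summed to 488, 513, 506 and 526 TPM, nearly level over the libraries. Clec4f, a lectin restricted to Kupffer cells, read 78.6, 77.5, 75.6 and 77.9 TPM, and Cd5l, a macrophage apoptosis inhibitor, 59.8, 52.1, 66.9 and 67.2 TPM. Vsig4, a complement receptor, stood at 25.2 ± 4.26 TPM and Timd4, of resident macrophages, at 3.46 ± 0.251 TPM. Marco, a scavenger receptor, was less even, at 7.22, 12.2, 4.21 and 2.87 TPM. Genes of stellate cells and fibroblasts summed to 352, 459, 443 and 422 TPM, and their most abundant member was Cxcl12, a chemokine that other liver cells also make, at 145 ± 14.5 TPM. Dcn, a matrix proteoglycan of stellate cells, read 33.7, 48.7, 50 and 48.8 TPM and was low in replicate 1. Lrat, which stores vitamin A, stood at 1.31 ± 0.334 TPM and Col1a1, of fibrillar collagen, at 0.375 ± 0.301 TPM.

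Endothelial genes were higher in replicate 4 than in the other libraries. They summed to 145, 181, 194 and 364 TPM, and 20 of 23 expressed members were highest in replicate 4, against 30.4% of all expressed genes and 34.3% of genes of matching transcript length. Clec4g, a lectin of the sinusoids, read 28.6, 31.9, 43.2 and 68.6 TPM. Stab2, the sinusoidal hyaluronan scavenger, read 5.31, 5.38, 5.52 and 12.6 TPM, and Kdr, the receptor for vascular endothelial growth factor, 1.84, 2.39, 2.68 and 6.66 TPM. In each of the 3, replicate 4 was above the other libraries, and Pecam1, a pan-endothelial adhesion molecule (5.38, 6.52, 6.54 and 14.5 TPM), and Lyve1 (2.38, 2.92, 2.9 and 6.89 TPM) had the same order at the top. The 3 members not highest there were Plvap, of the fenestral diaphragm (3.98, 4.8, 3.78 and 4.55 TPM), and Egfl7 (8.26, 11.2, 7.95 and 10.3 TPM), both highest in replicate 2, and Emcn (0.918, 2.14, 2.64 and 2.19 TPM), highest in replicate 3. The median expressed endothelial gene stood 0.74 log2 units above its 4-library mean in replicate 4, relative to all genes, while Kupffer cell genes stood at -0.01 and stellate cell genes at 0.05. Among members whose transcripts fall in the middle length quartiles, 11 of 12 were highest in replicate 4, against 33.7% of all genes of those quartiles.

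Cholangiocyte genes were low, with Spp1, which encodes osteopontin, at 33, 69.8, 23.6 and 20.9 TPM and Krt19, a keratin of bile ducts, at 0.732, 3.53, 0.337 and 0.796 TPM. Both were highest in replicate 2, and so were Krt7 (0.276, 0.835, 0.105 and 0.174 TPM), Cldn7 (0.205, 1.2, 0.0487 and 0.27 TPM) and Epcam (0.0511, 0.107, 0.0476 and 0.0271 TPM), all of which had means under 1 TPM. Only 3 of the 11 listed genes were expressed. All 3 were highest in replicate 2, against 33.1% of all expressed genes and 56.2% of genes of matching length. So few members show no pattern beyond these shares, and the other listed genes are not given here. Lymphocyte transcripts were close to the floor: no B cell or plasma cell gene reached a mean of 1 TPM, and Cd3e of the T cell receptor complex stood at 0.59 ± 0.125 TPM. The neutrophil calprotectin genes S100a8 (32.7, 30.6, 12.5 and 26.3 TPM) and S100a9 (31.5, 27.2, 11.4 and 27 TPM) were lowest in replicate 3. Ngp, of neutrophil granules, was near the floor and uneven, at 0.854 ± 0.596 TPM. Of red cell genes, Hba-a2 of alpha globin read 204, 296, 235 and 256 TPM with Hba-a1 listed at 0 in every library, and Alas2, the erythroid haem synthesis enzyme, 139.6, 119.8, 157 and 123 TPM. Hbb-bs of beta globin was listed at 0, 0, 90.8 and 0 TPM, next to Hbb-bt at 13.9, 16.7, 14.6 and 15.5 TPM, and 54.4% of the 31-base words of Hbb-bs occur in another gene.

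Transcripts that define neighbouring organs were nearly missing, but other listed genes of pancreas, intestine and fat were expressed. Of 8 skeletal muscle genes none reached 1 TPM and Ckm, muscle creatine kinase, was at 0 in all 4. Of 11 pancreatic acinar genes only Cela1 passed 1 TPM, at 22.3 ± 4.75 TPM, while Cpa1 and Cela2a, which define acinar cells, had means of 0.015 and 0.399 TPM. Of 7 intestinal genes, Fabp2 (164 ± 25.5 TPM) and Lgals4 (22 ± 7.96 TPM) were expressed, but Vil1, the villin of brush borders, had a mean of 0.158 TPM and Sis, sucrase, of 0.00122 TPM. Of 7 adipocyte genes 3 passed 1 TPM, and the list summed to 23.4, 86.8, 21.8 and 60.9 TPM. Adipoq and Plin1, which define adipocytes, had means of 0.0299 and 0.00297 TPM, whereas Cfd, the adipsin gene, read 12.4, 70, 10.9 and 39.6 TPM and was highest in replicate 2. Fabp4 and Lipe had means of 10.4 and 4.48 TPM.

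A single row of the 30 most abundant was not protein-coding. Mir6236, an annotated microRNA locus of 123 bases at chr9:110281287-110281409 on the plus strand, read 19974, 15069, 10988 and 7900.4 TPM and ranked 11th. It was highest in replicate 1 and lowest in replicate 4. A library made from polyadenylated RNA does not measure the mature microRNA, whose RefSeq sequence (GRCm38.p6, chr9:110281353-110281371, plus strand) is printed to identify the row, with the seed, bases 2 to 8, in capitals.
mmu-miR-6236: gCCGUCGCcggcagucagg
A level per length is sensitive to how short a locus is. MicroRNA loci together held 1.37 ± 0.532% of TPM, nearly all of it this row, protein-coding genes 97.7 ± 0.539%, and long intergenic RNAs 0.0614 ± 0.009%. GENCODE held 24522 of the 24972 symbols, by name or RefSeq synonym.

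By position, a few loci held a large part. The albumin gene, the Mup cluster of 2194060 bases on chromosome 4 and the Serpina1 and Serpina3 cluster of 686174 bases at chr12:103728156-104414329 together held 31.2 ± 1.53% of TPM from 45 rows. The fibrinogen cluster at chr3:83007724-83049863 held 2.93%, 1.59%, 2.15% and 4.86%, and the Saa cluster at chr7:46711998-46754313 held 1.9%, 0.315%, 0.637% and 1.82%. Both were lowest in replicate 2, fibrinogen was highest in replicate 4 and the Saa genes were high in replicates 1 and 4. The Apoa1, Apoc3, Apoa4 and Apoa5 cluster at chr9:46228580-46271919 held 1.73 ± 0.292%.

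The libraries were similar gene by gene. Pearson r of log2(TPM + 1) across 9324 genes ranged from 0.968 for replicates 2 and 4 to 0.988 for replicates 1 and 2, a description over genes, which are not independent replicates. The median gene had an SD of log2(TPM + 1) of 0.22 between libraries and a coefficient of variation of 18.4%. The median SD was 0.22 for genes of 1 to 10 TPM and 0.23 for genes above 1000 TPM, but the added 1 TPM narrows the spread of low genes, so these values do not compare it across levels. The highest library was at least 2 times the lowest in 1495 genes (16%). By class the median SD was 0.27 for secreted, 0.25 for metabolic, 0.23 for translation and 0.31 for non-parenchymal genes. The libraries were not equally often extreme: replicate 1 was the highest of the 4 in 4.95% of expressed genes and the lowest in 34.7%, replicate 2 in 33.1% and 25.3%, replicate 3 in 31.6% and 13.1%, and replicate 4 in 30.4% and 26.9%. These shares are the background for the counts of list members that follow. Because the library counted for each list was picked from the same values, a count above its share is a description and not a test. The median deviation of all genes from their own mean was -0.11 in replicate 1 and 0.07 in replicate 3, so list deviations are given relative to it. A single library stood far from the other 3 by Dixon's rule in 5.51% of expressed genes.

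The steadiest abundant genes were Clu, which encodes the chaperone clusterin, at 1956, 1930.3, 1988 and 1940.2 TPM, Car3, carbonic anhydrase 3, at 1331, 1348, 1318 and 1299 TPM, and Serpina1a at 7407, 7373, 7334 and 7135 TPM. Acadvl, the first enzyme of long-chain fatty acid oxidation, read 439, 460.0, 459 and 458 TPM and Ephx2, the soluble epoxide hydrolase, 1253, 1294, 1296 and 1225 TPM. No library stood away from the others by more than a small part of the level. At the other end were rows that were on in some libraries and off in others. Mup17 was at 3148 TPM in replicate 3 and at 0 in the rest, Hbb-bs had the same shape, and Rpl26, a ribosomal protein gene that every cell uses, was listed at 100.1, 97.4, 0 and 62 TPM. A listed 0 is therefore reported only as such. Tmem254c read 174, 14.2, 163 and 119 TPM while the 3 Tmem254 rows summed to 286, 290.4, 292 and 232 TPM, and 100% of its 31-base words occur in another gene. Of the other genes with a wide spread, Mup16, Snora64, Mir546 and Saa2 share 96.7%, 100%, 100% and 44.5% of their 31-base words with another gene, whereas Cyp4a14, Cib3 and Bri3 share at most 6.01%. Cyp4a14, a fatty acid omega-hydroxylase, read 55.4, 101, 89 and 457 TPM, and Cib3, a calcium-binding protein, 17.4, 68.6, 21.7 and 5.67 TPM. Cyp4a14 peaked in replicate 4 and Cib3 in replicate 2. Bri3, a membrane protein gene, had its lowest value in replicate 4, at 93.6, 146, 97.8 and 4.32 TPM.

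The acute-phase genes differed widely between the libraries. Their 26 members summed to 103472, 51556, 68459 and 138737 TPM, so replicate 4 held 2.69 times as much as replicate 2, with replicates 1 and 3 between. In replicate 2, 23 of 26 members were lowest, against 25.3% of all expressed genes and 14.8% of genes of matching transcript length. In replicate 4, 17 of 26 were highest, against 30.4% and 24.1%. After rescaling by the median ratio the counts were 22 and 13 of 26, against 31.3% and 30.7% of all genes. Of the 12 members in the middle length quartiles, 12 were lowest in replicate 2, against 23.2% of all genes of those quartiles. Saa1 and Saa2, the serum amyloid A proteins of high-density lipoprotein, read 8945, 1532, 2988 and 8829.9 TPM and 8030.3, 629, 1748 and 8264 TPM. They were high in replicates 1 and 4 and low in 2 and 3, and their sum spanned 7.91-fold. The 3 fibrinogen chains moved together: Fgb read 12096, 6746, 8591 and 19098 TPM, Fgg 9517, 5155, 6830.0 and 14981 TPM and Fga 7725, 3954, 6041 and 14489 TPM, each highest in replicate 4, then 1, 3 and 2.

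Lcn2, the siderophore-binding lipocalin 2, read 897, 213, 332 and 2673 TPM, Serpina3n, an antichymotrypsin, 3528, 1418, 2599 and 8938 TPM, and Itih4, an inter-alpha-trypsin inhibitor chain, 3228, 1614, 3131 and 6455 TPM. In each, replicate 4 was above the other libraries and replicate 2 was lowest. Steap4, a metalloreductase, had the same extremes at 107, 53.2, 119.9 and 353 TPM. Mt1 and Mt2, the metallothioneins, which glucocorticoids and zinc also raise, read 2578, 1202, 1269 and 3999 TPM and 1876, 1025, 1343 and 3056 TPM. Hp, the haemoglobin scavenger haptoglobin, was high in replicates 1 and 4, at 16366, 10238, 10083 and 16669 TPM. The direction was not shared by all members: Cp, which encodes ceruloplasmin, differed little at 418 ± 51.3 TPM, Hamp was lowest in replicate 3, Saa3 was highest in replicate 1, and Orm2, Socs3 and Cxcl1 were highest in replicate 3. Socs3, the feedback inhibitor of interleukin-6 signalling, read 9.07, 6.04, 24 and 15.9 TPM and Cxcl1, a neutrophil chemokine, 135, 120.2, 232 and 159 TPM. Endothelial, endoplasmic reticulum stress and PPAR-alpha target genes were also high in replicate 4, with the values given for each list, and their part in the acute-phase result was not tested.

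**Figure D3:**
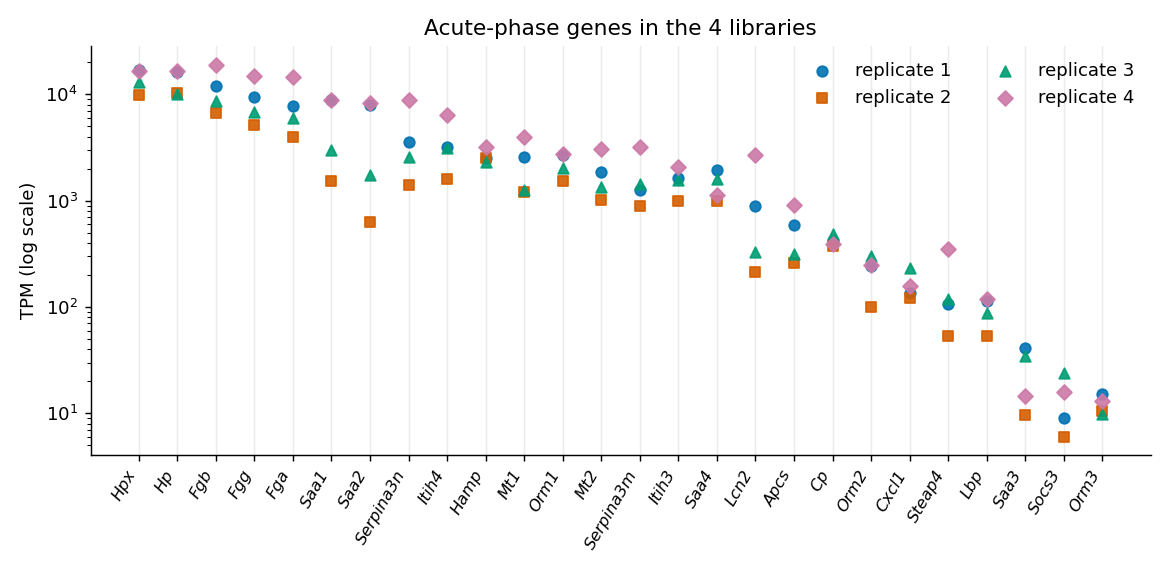
TPM (log scale) of the 26 acute-phase genes in the 4 libraries, 1 symbol per library, ordered by mean level. Replicate 2 is the lowest point for 23 genes and replicate 4 the highest for 17, and Saa2 runs from 629 to 8264 TPM.

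Saa1 (chr7:46740497-46742980, minus strand) and Saa2 (chr7:46751790-46754313, plus strand) face away from each other on chromosome 7, and the stretches before their starts are nearly the same. The bases from 250 to 51 before each RefSeq start (GRCm38.p6, chr7:46743031-46743230 on the minus strand for Saa1 and chr7:46751583-46751782 on the plus strand for Saa2) are shown side by side, with capitals at the positions that differ or face a gap in a global alignment.
Saa1 promoter: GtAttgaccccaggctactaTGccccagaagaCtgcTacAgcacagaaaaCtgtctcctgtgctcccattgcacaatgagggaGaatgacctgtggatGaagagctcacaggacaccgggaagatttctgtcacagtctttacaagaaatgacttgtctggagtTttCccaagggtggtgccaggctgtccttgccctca
Saa2 promoter: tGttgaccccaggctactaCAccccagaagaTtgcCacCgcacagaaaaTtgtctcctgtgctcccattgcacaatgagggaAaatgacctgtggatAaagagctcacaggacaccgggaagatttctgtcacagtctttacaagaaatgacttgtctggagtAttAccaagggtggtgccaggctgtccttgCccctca
Of the aligned positions 188 were identical, 11 were mismatches and 2 were gaps, an identity of 93.5%. The transcripts are alike too, with 46.8% of the 31-base words of Saa1 in another gene, so reads could be shared between them, and the sum is the safer value. The fibrinogen beta promoter (chr3:83049864-83050113, minus strand, 250 bases before the RefSeq start) is shown as that of the leading fibrinogen chain, whose transcripts share no 31-base word with another gene. Capitals mark TTCNNNGAA, the letters of a STAT3-type element, and GTTAAT, on either strand.
Fgb promoter: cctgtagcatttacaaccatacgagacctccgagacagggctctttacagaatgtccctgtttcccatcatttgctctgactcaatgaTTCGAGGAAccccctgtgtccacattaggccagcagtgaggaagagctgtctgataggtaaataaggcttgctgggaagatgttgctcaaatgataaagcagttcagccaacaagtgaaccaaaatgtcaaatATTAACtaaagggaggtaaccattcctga
TTCNNNGAA occurred in 7 of the 22 acute-phase promoters found in RefSeq (31.8%), namely those of Fga, Fgb, Hamp, Itih4, Apcs, Steap4 and Socs3. It occurred in 18 of 126 promoters of expressed secreted-protein genes (14.3%), in 6.03% of the 7458 of all expressed genes and in 6.89% of all 18243. Median G+C content was 53.6% in the acute-phase set and 59.6% over expressed genes, and its part in these counts was not tested. The promoters of Saa1, Saa2, Fgg, Lcn2 and Serpina3n held none in this window.

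Some lists have to be read beside transcript length. Among protein-coding genes split into quartiles by the length of their longest annotated transcript, the median gene of the shortest quartile (median 1472 bases) deviated from its 4-library mean by 0.21 log2 units in replicate 2 and -0.12 in replicate 4. In the longest quartile (median 5879 bases) the same values were -0.18 and 0.13. Replicate 2 was the highest library for 66.4% of the shortest and 7.39% of the longest quartile. Ribosomal proteins, whose transcripts are short, were highest in replicate 2 for 80 of 90 expressed members, against 60.8% of genes of matching length. Their median transcript of 1120 bases was below the median of the shortest quartile, so this match is loose. Of the 13 members in the middle length quartiles, 10 were highest in replicate 2, against 28.1% of all genes of those quartiles. Rpl10, of the large subunit, read 1069, 1187, 930.3 and 917 TPM and Rpl4 844, 952, 835 and 863 TPM. The elongation factor Eef1a1 (4686, 5642, 5994 and 5770.1 TPM) did not follow them. Nuclear respiratory chain and citrate cycle genes were highest in replicate 2 for 78 of 99, against 54.6%; among the 30 members of the middle length quartiles the count was 13, against 28.1% of all genes of those quartiles. Cox4i1, a cytochrome c oxidase subunit, read 666, 790.3, 559.6 and 519 TPM, while Atp5a1 of ATP synthase read 685, 759.8, 773 and 754 TPM. RNA quality values were not used here, and the part of transcript length in these counts was not tested beyond the matched shares.

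**Figure D4:**
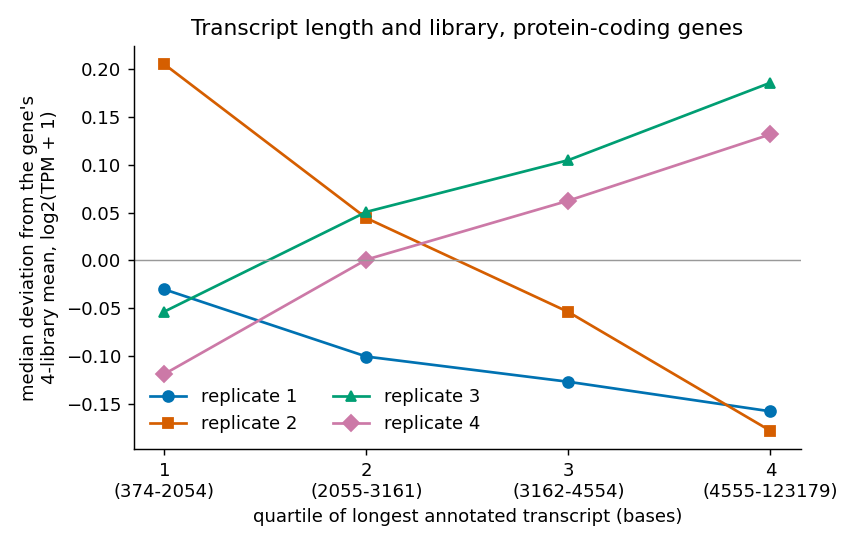
Median deviation of protein-coding genes from their own 4-library mean on the log2(TPM + 1) scale, by quartile of longest annotated transcript (bases), 1 line per library. Replicate 2 goes from 0.21 in the shortest to -0.18 in the longest quartile, while replicates 3 and 4 go the other way.

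Lipid genes differed between libraries in separate patterns. Targets of SREBP2, the sterol-sensing transcription factor that drives cholesterol synthesis, were highest in replicate 2 for 17 of 20 members, against 33.1% of all expressed genes and 27.1% of genes of matching length, and all 13 members in the middle length quartiles were among them. Fdps, of isoprenoid synthesis, read 307, 811, 548 and 298 TPM. Replicates 1 and 4 were low and replicate 2 was the highest. Fatty acid and triglyceride synthesis genes were lowest in replicate 1 for 21 of 28, against 34.7% of all expressed genes and 32.8% of genes of matching length. Scd1, the stearoyl-CoA desaturase, read 548, 1749, 1745 and 2706 TPM, Thrsp, a lipogenic regulator, 1071, 2362, 1396 and 1121 TPM, and Fasn, the fatty acid synthase, 16.2, 26.4, 30.5 and 17.8 TPM. Rescaling by the median ratio, which raises replicate 1 most, left 16 of 28, against 15.4% of all genes.

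Targets of PPAR-alpha, the fatty acid sensor of the fasted liver, were highest in replicate 4 for 19 of 23, against 30.4% of all expressed genes and 28.7% of genes of matching length. Cpt1a, the gate of mitochondrial oxidation, read 261, 272, 371 and 503 TPM and Plin2, a lipid droplet coat protein, 529, 576, 497 and 1215 TPM. Replicate 4 was above the other 3 in both. Pck1, which fasting also raises, was lowest in replicate 4. Pdk4, a strong fasting gene, stayed low at 0.897, 2.65, 2.23 and 2.89 TPM. Pklr, a carbohydrate-responsive glycolytic enzyme, was high in replicates 2 and 3 and low in 1 and 4, at 174, 350.1, 379 and 172 TPM.

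Genes of the unfolded protein and integrated stress responses were highest in replicate 4 for 12 of 18, against 30.4% of all expressed genes and 24.2% of genes of matching length. The chaperone Hspa5 (BiP) read 373, 276, 290.0 and 754 TPM, Manf 134, 88.5, 79 and 315 TPM, Creld2 38.1, 26.9, 26 and 108 TPM and Hyou1 54.9, 31.3, 47.5 and 153 TPM, all with replicate 4 above the other libraries. The amino acid response genes Atf4 (117 ± 7.32 TPM) and Ddit3 (6.78 ± 0.918 TPM) did not share this order, and Asns, asparagine synthetase, was lowest in replicate 4 at 15.7, 22.8, 37.4 and 10.1 TPM. Cytosolic heat shock genes had another order, with 9 of 10 members highest in replicate 3, against 31.6% of all expressed genes and 28.1% of genes of matching length. Hspa8 read 2244, 2016, 2581 and 1479 TPM, Dnajb1 13.1, 12.1, 16.8 and 4.75 TPM and Hspa1b 2.16, 1.72, 6.86 and 1.1 TPM. Replicate 4 was the lowest for all 3. After median-ratio rescaling the count was 7 of 10, against 22.1% of all genes. Of the 21 interferon-stimulated genes listed, Bst2 was the highest at 150.0 ± 28 TPM, with Isg15 at 6.49 ± 2.03 TPM. Members were highest in replicate 2 for 14 of 17 as deposited, against 33.1% of all expressed genes and 45.8% of genes of matching length, and for 9 after rescaling, against 32.1% of all genes.

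Female-biased liver genes were low in all libraries, at 54.2, 116, 49.8 and 74.4 TPM in sum, and 10 of 13 expressed members were highest in replicate 2, against 33.1% of all expressed genes and 50.1% of genes of matching length. The most abundant member, Cyp17a1, a steroid hydroxylase, read 35.6, 30.2, 30.6 and 51.2 TPM, lowest in replicate 2 and highest in replicate 4. Hamp2, a hepcidin paralog, read 1.44, 12.5, 3.34 and 8.07 TPM, Fmo2, a flavin monooxygenase, 4.83, 7.51, 6.17 and 6.13 TPM, and Cyp3a41a, a female-specific P450, 0.55, 13.3, 0.644 and 0.104 TPM. These 3 were highest in replicate 2, although 99.9% of the 31-base words of Cyp3a41a and 23.1% of those of Hamp2 occur in another gene. Xist was also highest there, but at 0.135 TPM, and the Y-linked genes were present in replicate 2 as in the other libraries. Of 17 expressed male-biased genes, led by Mup7, Serpina1e, Mup20 and Cyp2d9, 10 were highest in replicate 3, against 31.6% of all expressed genes and 19.9% of genes of matching length, and 6 after median-ratio rescaling, against 22.1%.

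**Figure D5:**
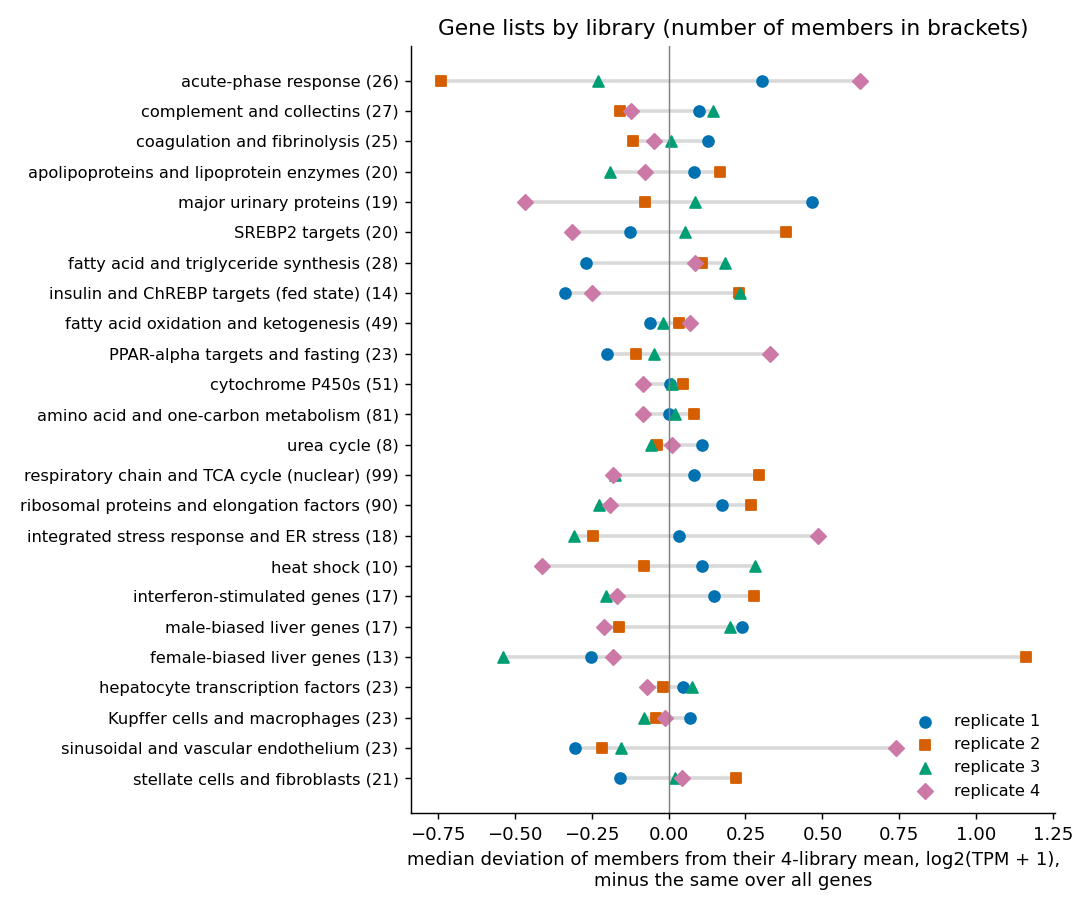
Median deviation of the members of 24 gene lists from their own 4-library mean on the log2(TPM + 1) scale, after subtracting the same median over all expressed genes, 1 symbol per library, with the number of expressed members in brackets. Acute-phase genes span -0.74 in replicate 2 to 0.62 in replicate 4, endothelial genes reach 0.74 in replicate 4 and female-biased genes 1.16 in replicate 2, while cytochrome P450s span 0.13 and Kupffer cell genes 0.15.

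Clock genes and immediate-early genes, which report the hour and the handling of sampling, were also described. The clock list summed to 266, 293, 330.0 and 280.4 TPM, with Nfil3, a clock repressor, at 28.4, 26.2, 48.4 and 36 TPM and Bhlhe40 at 34, 23.2, 26.8 and 39.2 TPM. Of the immediate-early genes Zfp36, which destabilises cytokine messages, read 50.3, 42.8, 78.4 and 53.6 TPM and Junb 15.3, 13.9, 24.4 and 18.3 TPM, both highest in replicate 3. Dusp1 was level at 10.4 ± 0.74 TPM. Cell cycle genes were near the floor, with Pcna, the replication clamp, at 16.7 ± 2.5 TPM and Ccnd1, cyclin D1, at 9.31, 11.9, 13.1 and 22.4 TPM, highest in replicate 4. Among 14 housekeeping genes the median SD was 0.20, next to 0.22 over all genes. Gapdh read 1691, 2224, 1543 and 1701 TPM.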

How the data were processed

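RNA of total liver was extracted with the illustra RNAspin Mini kit, and Illumina TruSeq Stranded mRNA libraries were made from it, per the labels' protocols. The authors deposited 1 table of expression per gene symbol in TPM; the unit was read from the values, since each column sums to 1000000, and the submitters' processing notes name the build mm10. Aligner, counter, strand setting and annotation: each is not given in the sources used here. TPM keeps no depth, so the reads behind each value, and any counting error, are unknown. Columns were matched to the 4 libraries by the names in their titles.

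Genes were ranked by mean TPM, shares were summed over 34 exclusive class lists and 22 further lists, and spread is the SD of log2(TPM + 1) among genes whose mean reached 1 TPM. A list count gives the members highest or lowest in a library beside the same share of all genes. Genes of matching transcript length are those of the members' length quartiles, not of equal length. The members and lists were chosen with earlier results of these data known. The library and the side (highest or lowest) counted for each list were picked from these same values. By rule the text names the 30 highest genes, the 4 highest of each list, the 15 with the largest SD (mean of at least 10 TPM), the 10 with the smallest (at least 100 TPM) and the markers of each cell type; Apcs, Asns, Atf4, Cp, Cpt1a, Creld2, Cxcl1, Ddit3, Dnajb1, Egfl7, Emcn, Fasn, Gm5424, Hspa1b, Hyou1, Isg15, Itih4, Manf, Orm2, Pdk4, Plvap, Saa3, Serpina3n, Socs3 and Steap4 were chosen after their values were seen. Shared 31-base words, positions and lengths come from GENCODE (GRCm38), and promoters and microRNAs from RefSeq (GRCm38.p6). Python 3.11.15, pandas 2.3.3, numpy 2.4.6 and matplotlib 3.10.9 were used. Only the SD of log2 values, the call of the highest library and Dixon's ratio were tested on simulated data. Protein features were not analysed here, and some genes that the rule names are not reported.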

Additional observations from a re-analysis of the deposited data

Results flagged for a closer look

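In a group of 4 libraries, Dixon's ratio divides the gap between the highest or lowest library and its nearest neighbour by the whole range, and a ratio counts as high above Dixon's 95% critical value. Chance passes about 1 in 20 groups. That value was exceeded by 13 of the 191 named genes whose mean reached 1 TPM (6.81%), next to 5.51% of all expressed genes, by 2 of 52 list sums (3.85%) and by 0 of 5 class shares. The named genes include some chosen for their large SD between these same libraries. Their share can therefore not be compared with that of all expressed genes.

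Replicate 2 stood high for 5 named genes. The ratio was 0.862 for Acaa2, the last enzyme of mitochondrial beta-oxidation, 0.969 for Asgr1, 0.854 for Lgals4, 0.959 for Cyp3a41a and 0.856 for Krt19. Replicate 4 stood high for Plin2 (0.89) and Cyp4a14 (0.887) and low for Gstp1 (0.83) and for the antioxidant enzyme Gpx1 (0.878). Replicate 1 stood low for Acadvl (0.91) and Dcn (0.919). Replicate 3 was the single library above 0 for Mup17 and Hbb-bs, which gives both a ratio of 1.

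Of the list sums, complement and collectins had a ratio of 0.845, with replicate 2 low, and redox defence, iron and metallothioneins a ratio of 0.94, with replicate 3 low.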

How the results depend on the processing

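Of 77 alternatives over 23 results, 65 stayed within the tolerance used (1 SD for a share, 1.5 times for a count or a median SD) and 12 moved beyond it. With so few libraries, leaving out a single one cannot move the mean of a class share by 1 SD. Those alternatives were therefore bound to stay within the tolerance and say nothing about how stable the shares are. After leaving out the Mup genes and rescaling, the secreted share was 47.2%, the metabolic 22.7% and the non-parenchymal 0.205%. Without genes that overlap an exon of an opposite-strand gene, the secreted share was 56.03% and the metabolic 19.1%. Without genes that share at least 50% of their 31-base words with another gene, an alternative chosen after the data were seen, as were those for Gm21320 and Gm2083 and for the list counts, the secreted share was 45.6%, the metabolic 24.2% and translation 4.05%. Shared words were measured only for the most abundant and the named genes, so all other genes stayed in. A threshold of 5 TPM left 5712 genes in place of 9324. After median-ratio rescaling, the male-biased, interferon and complement counts went from 10 to 6, from 14 to 9 and from 18 to 9, and the other 12 list counts stayed within the tolerance.

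Leaving out each library in turn gave 51.9% to 53.4% for secreted, 20.02% to 20.9% for metabolic, 3.27% to 3.56% for translation and 0.181% to 0.192% for non-parenchymal genes, 25.9% to 26.8% for the top 10, 63.8% to 65.0% for the top 100, 9246 to 9398 genes and a median SD of 0.20 to 0.23. The alternative without mitochondrial genes could not be run, since no symbol of that genome is listed. No paired analysis was possible because 1 group was described and no test was run. With no depth in TPM, precision at low values cannot be given.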
